A study of Homo sapiens with 12 samples.

Results

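The regions described are the broad acetylated domains of untreated CFPAC1 cells: unbroken H3K27ac peaks of at least 6000 bp in 1 untreated library that overlapped, by at least 1 bp, a peak of at least 6000 bp in the other untreated library. There were 424 of them among the 97416 peaks of the first untreated library on chromosomes 1 to 22 and X, which is 0.435% of its peaks and 4.39% of its covered bp. They were chosen by their measured width in the 2 untreated CFPAC1 libraries, so those widths are given as a description. What follows is how much of each domain lay under peaks in the other 10 libraries.

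H3K27ac was profiled by chromatin immunoprecipitation and sequencing (ChIP-seq) in 12 libraries of 2 human pancreatic ductal adenocarcinoma lines, CFPAC1 and MiaPaCa2, in 6 groups of 2. Bulk CFPAC1 cells were treated with interferon beta (IFN-beta) at 1000 U/ml for 2 h or left untreated. IRF1 knockout (KO) clones came from CFPAC1 cells infected with the lentiCRISPRv2 plasmid carrying Cas9 and a guide RNA against IRF1, and wild-type (WT) clones from CFPAC1 cells infected with the empty plasmid. Both kinds of clone were isolated by dilution and each library is 1 clone, so the difference between KO and WT cannot be told apart from differences between single clones. Bulk MiaPaCa2 cells were treated with the same dose and time of IFN-beta or left untreated. All CFPAC1 cells were grown in IMDM and MiaPaCa2 cells in DMEM, so the line and its medium cannot be told apart either. Nothing in the labels ties the 2 libraries of a bulk group to separate cultures, and the p-values then measure only the spread between these libraries, which may be technical.

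Acetylation of lysine 27 of histone H3 marks active promoters and enhancers, and most of its peaks span 1 or a few nucleosomes. Long unbroken stretches of the mark are made where many regulatory elements lie close together, and they are known from many cell types to gather at genes of cell identity, among them the transcription factors that define a lineage. IRF1 is a transcription factor induced by interferons that binds interferon-responsive promoters and enhancers.

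The domains were 6002 to 24839 bp wide, with a median of 7760 bp, against a median of 514 bp over all peaks. Of the 424, 95 were wider than 10000 bp and 19 wider than 15000 bp. The authors' fold enrichment at the summit had a median of 24.2 over the domains, against 5.41 over all peaks, but 134 of the 424 were among the 1000 peaks of highest fold. Breadth and height therefore picked partly different peaks. Just inside the threshold lay peaks at HPCAL1 (6002 bp), EDN1 (6018 bp), an unnamed region of chromosome 7 (6033 bp), ALDH3B1 (6038 bp) and ISL1 (6040 bp). Just outside it lay an unnamed region of chromosome 14 (5991 bp), ASAP2 and PDZD8 (5990 bp each), KRT13 (5989 bp) and MKLN1 (5985 bp). A further 164 peaks of at least 6000 bp in the first untreated library had no such partner in the second, where the widest overlapping peak had a median of 4766.5 bp.

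An end of a protein-coding gene lay inside 113 domains (26.7%), against 7.05% of all peaks (genes were taken without strand, so a start was not told from a finish). Another 196 lay within a gene body, 55 had their nearest gene end within 50 kb, and 60 had none that near and are called unnamed. A wider region has more room for a gene end, and the domains had a median width of 7760 bp, against 514 bp. The share with a gene end was not set against peaks of like width, and the part of width in it was not tested. Joined where they were within 100 kb, the 424 domains made 323 groups, and 74 groups of 2 or more held 175 domains. No such count was made for other peaks, so it is not known whether this is closer than usual. Some neighbours nearly touched: at BCL9L 1 domain ended at 118919033 and the next began at 118919149. The group with the most domains had 6, on chromosome 3 (chr3:149338007-149624628, GRCh38), over TM4SF18, TM4SF1, TM4SF4 and WWTR1. TM4SF1 encodes a tetraspanin-like surface protein and WWTR1 encodes TAZ, a coactivator of the TEAD factors of the Hippo pathway. Groups of 4 lay at HORMAD2 and LIF, at ACTN4, at SMAD3, at SEMA3A, at MET, at VMP1 and TUBD1, and in an unnamed region of chromosome 9 (chr9:21543976-21685088).

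RefSeq promoters (GRCh38.p14, 250 bases before to 50 bases after a start) had a start inside a domain in 134 cases, for 102 genes. The 5 printed next show domains that differ in their results or in their motifs: GABRP, whose domain was shorter in KO clones; ACSL5, whose domain gained a peak in treated MiaPaCa2 cells; EHF, a factor with a broad domain in every library; F3, tissue factor, shown for its 2 AP-1 matches; and TM4SF1, of the chromosome 3 group. For a gene with several starts inside the domain, the one with the most motif matches is shown. They are written 5′ to 3′ on the gene's strand, and capitals mark motif matches.

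GABRP, chr5:170783475-170783774, plus strand: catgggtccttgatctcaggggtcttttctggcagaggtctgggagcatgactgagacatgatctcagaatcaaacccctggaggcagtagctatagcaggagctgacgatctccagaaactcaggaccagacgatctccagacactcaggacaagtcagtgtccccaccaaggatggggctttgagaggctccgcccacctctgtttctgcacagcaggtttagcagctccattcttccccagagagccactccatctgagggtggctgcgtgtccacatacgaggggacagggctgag
ACSL5, chr10:112375018-112375317, plus strand: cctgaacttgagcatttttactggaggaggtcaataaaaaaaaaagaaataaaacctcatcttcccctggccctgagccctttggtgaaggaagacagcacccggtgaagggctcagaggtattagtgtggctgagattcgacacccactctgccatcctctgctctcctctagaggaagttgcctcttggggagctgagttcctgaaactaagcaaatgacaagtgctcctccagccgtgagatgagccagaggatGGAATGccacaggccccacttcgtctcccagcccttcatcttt
EHF, chr11:34632316-34632615, plus strand: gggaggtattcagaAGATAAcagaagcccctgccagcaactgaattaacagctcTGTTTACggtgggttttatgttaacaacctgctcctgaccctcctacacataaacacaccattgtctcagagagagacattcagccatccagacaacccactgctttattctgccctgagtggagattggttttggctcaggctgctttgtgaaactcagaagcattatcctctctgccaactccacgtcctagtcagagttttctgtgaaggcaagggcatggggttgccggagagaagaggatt
F3, chr1:94541710-94542009, minus strand: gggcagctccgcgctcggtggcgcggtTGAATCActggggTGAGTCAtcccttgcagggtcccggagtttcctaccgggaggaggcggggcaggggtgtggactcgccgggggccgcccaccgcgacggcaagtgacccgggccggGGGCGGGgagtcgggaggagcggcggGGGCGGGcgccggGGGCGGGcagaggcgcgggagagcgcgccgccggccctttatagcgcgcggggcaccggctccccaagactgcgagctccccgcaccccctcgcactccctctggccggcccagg
TM4SF1, chr3:149377600-149377899, minus strand: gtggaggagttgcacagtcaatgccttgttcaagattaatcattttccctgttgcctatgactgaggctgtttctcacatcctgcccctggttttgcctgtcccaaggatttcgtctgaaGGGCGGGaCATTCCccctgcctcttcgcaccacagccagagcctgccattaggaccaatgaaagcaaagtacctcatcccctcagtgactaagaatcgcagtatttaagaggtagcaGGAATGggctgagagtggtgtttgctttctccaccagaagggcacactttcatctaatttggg

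The 8 motifs were searched on both strands, and a base could count for more than 1 motif. AP-1, the site of FOS and JUN dimers, was searched as TGANTCA and stood in 17 of the 134 promoters (12.7%), against 6.15% of all 22131 promoters in the table. The TEAD motif, GGAATG, stood in 26 of 134 (19.4%), against 12.2% of all. The GC box of KLF and SP factors, GGGCGGG, was found in 37.3% against 42.4%, and the median GC content of the promoters was 58.3% against 62.3%. Base composition thus differed between the sets as well, and its part in the motif shares was not tested. The interferon-stimulated response element (ISRE) was searched as the half-site GAAA repeated after any 2 bases. It was found in 5 of 134 promoters (3.73%) against 3.17% of all, the genes being EDN1, DNMBP, H3C10, TRHDE and ZFP36L1. The GATA motif, AGATAA, stood in 10.4% against 7.88%, and the forkhead motif, TGTTTAC, in 3.73% against 2.85%. The E-box, CACGTG, stood in 7.46% against 8.34%. NF-kB sites, GGGA followed after any base by TTTCC, stood in 0.746% against 0.502%. The promoter of GABRP held none of the 8 motifs.

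Some domains also held microRNA genes, of which 2 sites are shown as examples: let-7i, in a domain near MON2 on chromosome 12, and miR-15b and miR-16-2, in 1 domain at IFT80 and SMC4 on chromosome 3. Capitals mark the seed, bases 2 to 8 of the mature RNA, which pairs with targets.

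hsa-let-7i-5p, chr12:62603691-62603712, plus strand: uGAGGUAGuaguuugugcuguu
hsa-miR-15b-5p, chr3:160404607-160404628, plus strand: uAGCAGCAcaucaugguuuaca
hsa-miR-16-5p, chr3:160404754-160404775, plus strand: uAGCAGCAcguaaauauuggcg

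miR-15b and miR-16 have the same seed and are known to repress cell cycle and survival genes. Their domain of 7261 bp was covered over 7040 and 6969 bp in IFN-beta-treated CFPAC1, against 7261 bp in each untreated library. It was covered over 6756 and 7261 bp in KO clones, against 7040 and 6849 bp in WT clones. In MiaPaCa2 it was covered over 7192 and 7261 bp with IFN-beta and over 7261 and 7222 bp without. No library fell below 6756 bp, and the ranges of the paired groups overlapped in the clones and in MiaPaCa2. The let-7i domain of 6984 bp was covered over 5604 to 6984 bp in the 12 libraries.

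Over the whole series, each library held 59896 to 109861 peaks over 63.6 to 94.8 Mb, and read depth is unknown. KO clone 1 stood apart: its smallest deposited −log10 q was 1.372, against 1.302 to 1.319 in the other 11 libraries, and its median peak of 587 bp was the widest. The options of the peak calls are not given in the sources used here, and neither is which of 2 sequencer models read each library, so the part of either in the values of KO clone 1 was not tested. Ductal epithelial markers were covered in both libraries of every CFPAC1 group for 9 of 9 genes, and for 5 of 9 in treated and 6 of 9 in untreated MiaPaCa2. The targeted gene, IRF1, lay under no domain; its widest peak was 5003 and 4481 bp in KO clones, against 1443 and 1357 bp in WT clones, so the extent of acetylation at IRF1 does not show the knockout. IRF1, GAPDH and ACTB are not among the 424.

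The domains kept most of their extent in the other CFPAC1 libraries, while many were broken into several peaks. Peaks covered 95.1 and 94.5% of their bp in IFN-beta-treated CFPAC1, against 100% and 98.2% in the untreated libraries that defined them. They covered 90.2 and 93.2% in KO clones, against 95.8 and 94.1% in WT clones. In MiaPaCa2 they covered 48.3 and 51.3% with IFN-beta and 49.6 and 49.4% without. No domain was at 0 bp in any CFPAC1 library. Over all 97416 peaks the coverage was lower in every library but the one that defined them: 72.6 and 72.1% in treated CFPAC1, against 83.6% in the second untreated library, 73.1 and 74.5% in KO clones, against 79.8 and 73.8% in WT clones, and 38.3 to 41.9% in MiaPaCa2.

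A peak of at least 6000 bp remained in 290 and 280 of the 424 domains in treated CFPAC1, in 237 and 280 in KO clones, against 316 and 296 in WT clones, and in 138 to 165 in MiaPaCa2. Most of the others were split in CFPAC1: of those without such a peak, 125 of 134 and 136 of 144 held several peaks in treated CFPAC1, 176 of 187 and 134 of 144 in KO clones, against 98 of 108 and 116 of 128 in WT clones, and the rest held 1 shorter peak. In MiaPaCa2 128 to 135 of the domains had no bp under a peak, 37 to 43 of those without a broad peak held 1 shorter peak and 92 to 118 held several. Over all 424, a domain held on average 2.00 and 2.12 separate peaks in treated CFPAC1, 2.60 and 2.17 in KO clones and 1.84 and 2.00 in WT clones. Of the 424, 142 held a broad peak in all 6 CFPAC1 libraries other than the untreated ones, and 56 in all 12. ITGA3 (an integrin alpha chain), EHF, KRT19, LIF, EPHA2, PLK2 and KRT80 had such domains. Coverage inside fixed bounds cannot exceed the width, so an extension beyond the bounds was not measured, and the measure is extent, not height.

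**Figure D1:**
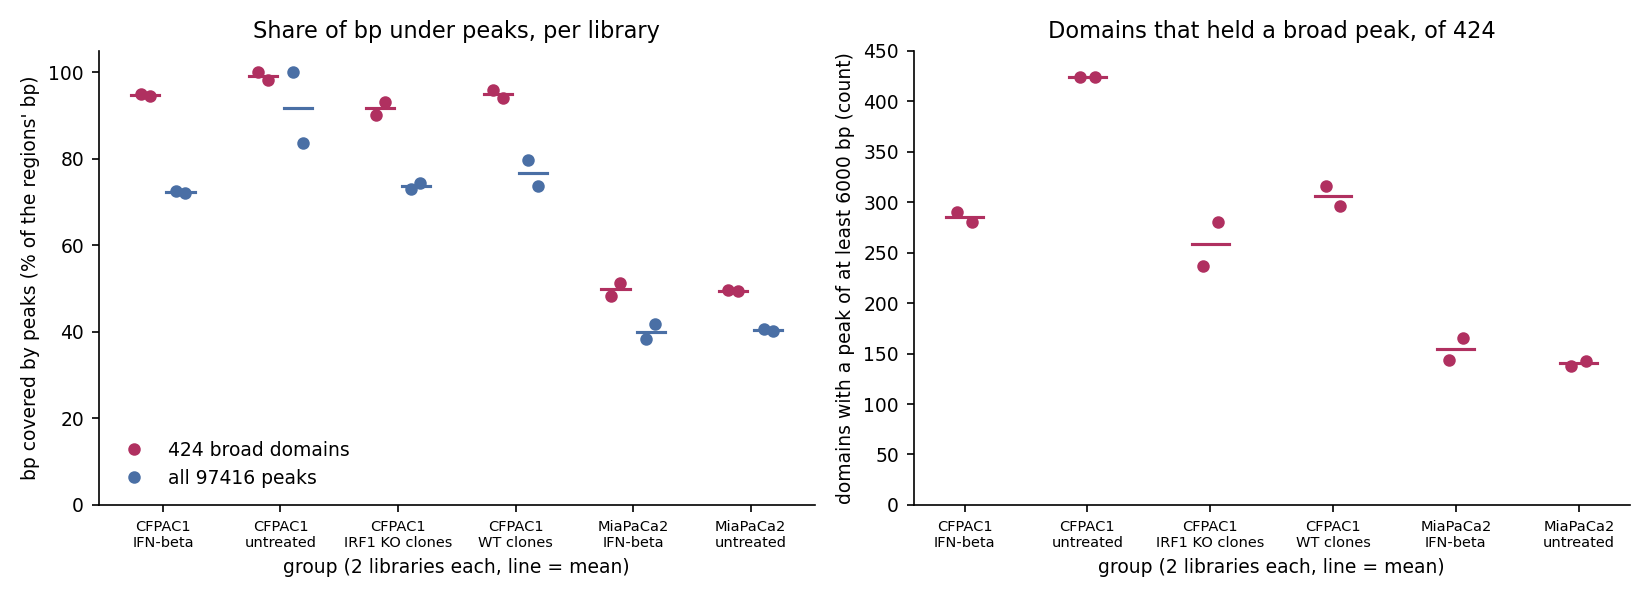
Left, percent of bp under peaks (y axis) in each of 12 libraries, for the 424 broad domains (red) and for all 97416 peaks of the defining library (blue). Right, number of the 424 domains that held a peak of at least 6000 bp. Points are libraries and lines are means of 2. The domains stayed above 90% in the 8 CFPAC1 libraries and near 50% in the 4 MiaPaCa2 libraries.

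The widest domain, 24839 bp on chromosome 20, held the end of TGM2, a transglutaminase that cross-links proteins. It was covered over 24397 and 22592 bp in treated CFPAC1, against 24839 and 23500 bp in untreated cells, and over 23680 and 23641 bp in KO clones, against 22219 and 16260 bp in WT clones. In MiaPaCa2 it was covered over 5977 and 5854 bp with IFN-beta and 6383 and 5661 bp without. WT clone 2 was thus the low one among CFPAC1 libraries, and MiaPaCa2 carried 24.0% of the domain on average. The next widest were ASPH on chromosome 8 (22166 bp), AMOTL2, an angiomotin-like protein of the Hippo pathway (20440 bp), ITGA3 (19825 bp), SLC2A1, the glucose transporter GLUT1 (19408 bp), RARA, a retinoic acid receptor (18533 bp), DCBLD2 (18481 bp), ZMIZ1 (18115 bp), KLF5 (17895 bp) and MECOM (16586 bp). In MiaPaCa2 these ran from full to empty: AMOTL2 and ITGA3 were covered over 96.9 and 97.4% on average, ZMIZ1 over 67.6%, RARA and SLC2A1 over 18.4 and 15.2%, ASPH over 9.15%, DCBLD2 over 4.62%, and KLF5 and MECOM over none.

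Several transcription factors of epithelial and endodermal cells lay in the domains. Of 38 such genes, 5 had a gene end in a domain, KLF5, KLF6, ELF3, EHF and BHLHE40, and others, among them TFAP2A and MECOM, had a domain in the gene body only; over all 19970 protein-coding genes, 0.626% had an end in a domain. The list was chosen with earlier results known, and is described by these counts alone. KLF5, a zinc-finger factor of epithelial proliferation, was covered over 17104 and 17149 bp in treated CFPAC1, against 17895 and 17627 bp in untreated cells. It was covered over 14251 and 16276 bp in KO clones, against 17895 and 16357 bp in WT clones, and over 0 bp in all 4 MiaPaCa2 libraries. The KO clones were both below both WT clones, and the change was not called (log2 change −0.13, limma adjusted p = 0.408).

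Both MECOM domains were also at 0 bp throughout MiaPaCa2. EHF, an ETS factor of epithelia, was the opposite: its 13870 bp were covered over 13131 and 13645 bp in treated MiaPaCa2, against 13648 and 12854 bp in untreated MiaPaCa2, as in CFPAC1, where no library fell below 12761 bp. Both KLF6 domains and the TFAP2A domain were likewise covered in all 12 libraries, over at least 7195 of 7835 bp, 7565 of 7771 bp and 7792 of 7856 bp. ELF3, another epithelial ETS factor, was uneven within groups: 6145 and 4856 bp in treated CFPAC1, against 6753 and 5741 bp in untreated cells, and 2137 and 2979 bp in treated MiaPaCa2, against 6332 and 3129 bp in untreated MiaPaCa2. Its single high MiaPaCa2 library was 1 of the untreated ones, and no test called it. BHLHE40, a circadian and stress-responsive repressor, was covered over 6590 and 5184 bp in treated MiaPaCa2, against 4824 and 2654 bp in untreated MiaPaCa2, groups that did not overlap; the change was not called (adjusted p = 0.996 in limma).

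Among adhesion, keratin and mucin genes, 3 of 46 had an end in a domain and 3 more a domain in the body. The domain at KRT15 and KRT19, keratins of which the second marks pancreatic ducts, spanned 13124 bp and was covered over 12134 to 13124 bp in all 12 libraries. KRT80 was covered over at least 7211 of 7503 bp in every library, and the domain in TSPAN1 over at least 5437 of 6264 bp. LAMB3, a laminin chain of the epithelial basement membrane, was covered over 6020 to 6364 bp in CFPAC1, but over 0 and 598 bp in treated and 0 and 693 bp in untreated MiaPaCa2. CDH1, which encodes E-cadherin, had 6217 bp in its body that were covered over 5411 to 6217 bp in CFPAC1 and 0 bp in all 4 MiaPaCa2 libraries. AXL, from the 16 mesenchymal genes, was covered almost fully in CFPAC1 (7321 or 7322 of 7322 bp) and over 5388 and 6642 bp in treated MiaPaCa2, against 5029 and 5694 bp in untreated MiaPaCa2.

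Growth factor genes made up several domains. EREG and AREG, ligands of the EGF receptor that lie near each other on chromosome 4, and SPRY1, a feedback inhibitor of that pathway, had an end in a domain, 3 of 26 genes of that list. EREG was covered over at least 13942 of 14886 bp and AREG over at least 5637 of 6403 bp in every library, MiaPaCa2 included. EGFR and EPHA2, receptors, had domains in the gene body that MiaPaCa2 also carried: EPHA2 over at least 12249 of 12891 bp and EGFR over 5437 and 6519 bp with IFN-beta, against 5801 and 5740 bp without. MET, the receptor of hepatocyte growth factor, differed from them. Its 4 domains were covered over at least 5619 bp each in CFPAC1; in MiaPaCa2 3 of them were at 0 bp in all 4 libraries, and the first was covered over 261 to 477 of 6840 bp.

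In the TGF-beta and BMP list, TGFB2, a ligand, had an end in a domain (1 of 17 genes), and 4 more had domains in the body: the receptor TGFBR2, the signal transducer SMAD3, and the inhibitors SMAD6 and SMAD7. All 4 SMAD3 domains were near full in every library, the widest over 11737 to 13125 of 13125 bp. SMAD7 and SMAD6 were near empty in MiaPaCa2: SMAD7 had 0 and 245 bp in treated and 0 bp in both untreated libraries, and SMAD6 is given with the tests below. LIF, a cytokine of the interleukin-6 family, had 2 adjoining domains of 12034 and 13078 bp, covered over at least 11153 and 12769 bp in all 12 libraries. TNFRSF1A, a TNF receptor, was covered over at least 9786 of 11044 bp. NFKBIZ, an NF-kB cofactor, had 1542 bp in both treated and 1266 and 1534 bp in both untreated MiaPaCa2 libraries, of 6333 bp. LIF and TNFRSF1A were 2 of 28 NF-kB and inflammatory genes.

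Growth and cell cycle genes with an end in a domain were MYC, CDKN1B, BCL2L1 and CDK6, 4 of 15. MYC, on chromosome 8, was covered over 6805 to 7048 of 7048 bp everywhere, and CDKN1B, a cyclin-dependent kinase inhibitor, over 7709 to 7886 of 7886 bp. CDK6, a cyclin-dependent kinase, had 3 domains; in MiaPaCa2 the one at its end was covered over 857 and 1218 bp with IFN-beta, against 765 and 0 bp without, and the others over at most 200 bp. Other lists gave AMOTL2 of the Hippo and WNT targets (1 of 14, with TCF7L2 in the body only), SLC7A11, the cystine transporter, of the NRF2 list (1 of 14, with NFE2L2 in the body only), ACSL5 of the sterol and fatty acid genes (1 of 19) and IRF2BP2 of the interferon signalling genes (1 of 22). None of 66 interferon-stimulated genes, 12 AP-1 factors, 22 ribosomal protein genes or 22 glycolysis and carbohydrate genes had an end in a domain. In the last of these lists, SLC2A1 and HK2 had a domain in the body. Over all 19970 protein-coding genes the share was 0.626%, so lists this short could hold none at the background share. PLAAT4, an interferon- and retinoid-responsive gene outside these lists, had an end in a domain.

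**Figure D2:**
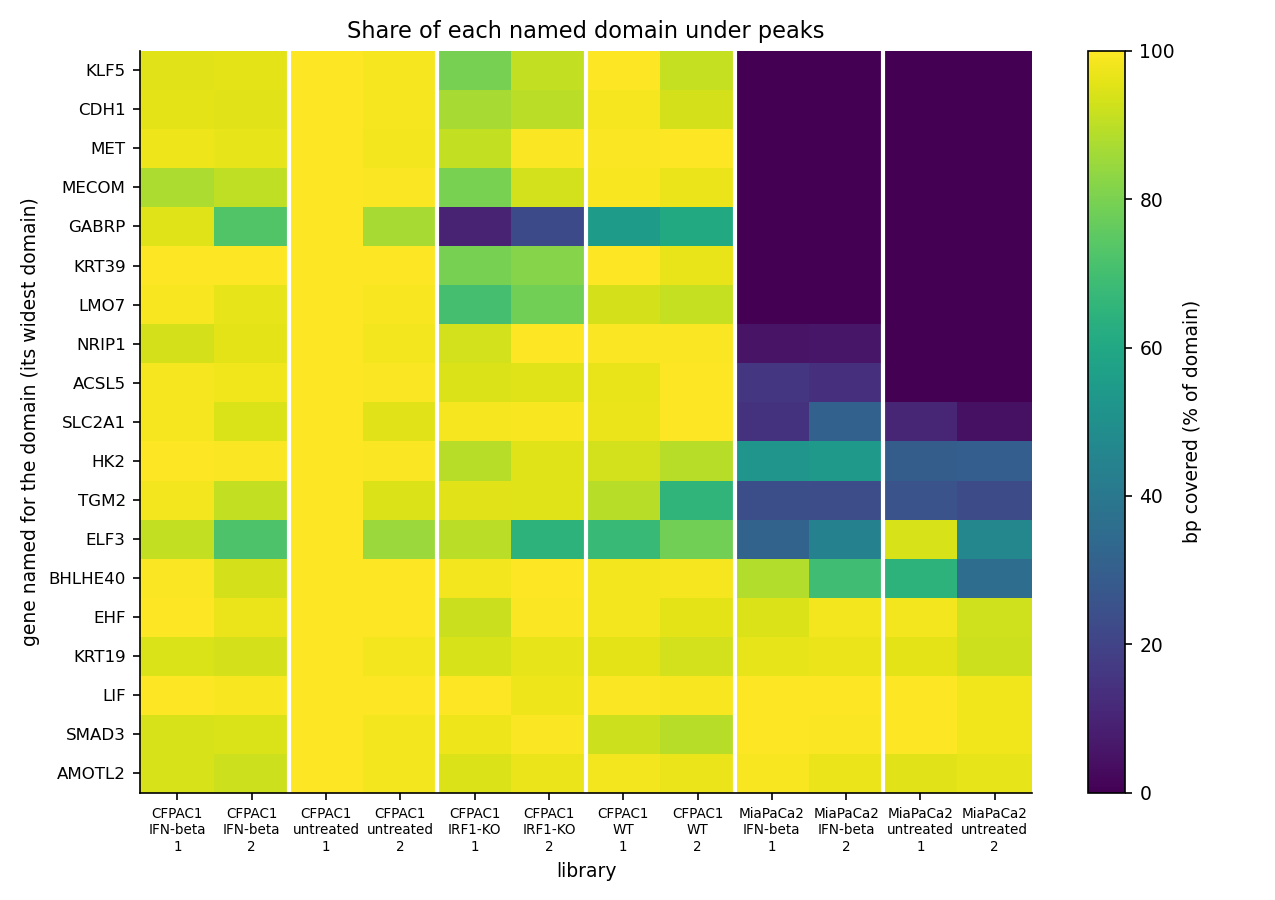
Percent of each named domain (y axis; the widest domain of each gene) that lay under peaks in each of 12 libraries (x axis), coloured from 0% (dark) to 100% (yellow). KLF5, CDH1, MET, MECOM, GABRP, KRT39 and LMO7 are at 0 bp in all 4 MiaPaCa2 libraries, and EHF, KRT19, LIF, SMAD3 and AMOTL2 are covered in all 12.

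Coverage of the domains in MiaPaCa2 fell at both extremes. Of the 424, 120 (28.3%) had 0 bp in all 4 MiaPaCa2 libraries, 33 more were covered under 10% on average, 55 from 10% to under 50%, 69 from 50% to under 90%, and 147 (34.7%) at least 90%. Over all 97416 peaks, 54.7% were at 0 bp and 21.9% at least 90% covered, and peaks of 3000 to under 6000 bp stood closer to the domains, with 31.8% at 0 bp. Since the domains were chosen in CFPAC1, a lower coverage in MiaPaCa2 follows in part from the choice, and no test is given. Domains with a gene end inside were empty in MiaPaCa2 in 18 of 113 cases (15.9%), with a median coverage of 69.4%. Those without were empty in 102 of 311 cases (32.8%), with a median of 45.6%.

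Among the widest domains without any MiaPaCa2 coverage were those at KLF5, MECOM, an unnamed region of chromosome 9, TRHDE, RND3, MEIS1, ANXA3, RBPMS on chromosome 8 and ASPH, 13214 to 17895 bp wide. MEIS1 is a homeobox cofactor and ANXA3 an annexin. All 4 domains of the chromosome 9 group were at 0 bp in MiaPaCa2. SOX2, a pluripotency and foregut factor, and ISL1, a LIM homeobox factor of endocrine and neural lineages, also had an end in an empty domain, with 7619 to 7756 of 7756 bp and 5915 to 6040 of 6040 bp covered in CFPAC1. At the other end, 10 domains of 8158 to 12479 bp were the widest of those covered to the last bp in all 4 MiaPaCa2 libraries. They were named for FRMD8, SKAP1, HORMAD2, PLK2 (a polo-like kinase), ZMYND8, MOK, MBP and MYO18A, or lay in unnamed regions of chromosomes 10 and 1. A name need not be a gene that holds the domain: FRMD8 was only the nearest gene end, within 50 kb. Within the chromosome 3 group of 6 domains, TM4SF1 was covered over at least 8555 of 8624 bp in MiaPaCa2, while the neighbouring TM4SF4 was covered over 1702 and 1750 bp with IFN-beta and 1983 and 1895 bp without, of 10562 bp. Coverage thus differed between neighbours within 1 group.

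**Figure D3:**
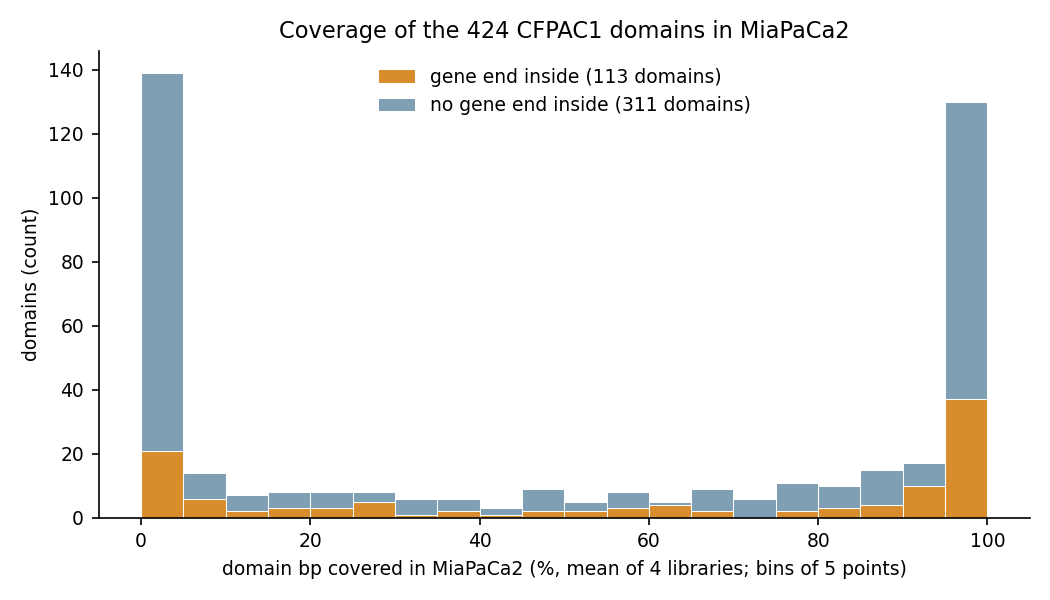
Number of domains (y axis) by percent of bp covered in MiaPaCa2 (x axis, mean of 4 libraries, bins of 5 points), for 113 domains with a gene end inside (orange) and 311 without (blue), stacked. Most domains lie near 0 or 100%; 120 are at 0 bp and 147 at 90% or more.

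In CFPAC1, IFN-beta against no treatment is a description only, since the untreated libraries chose the domains and their coverage could hardly be exceeded. The 2 treated libraries covered at least 95% of 260 domains on average and under 80% of 15; in WT clones, also not used for the choice, the counts were 272 and 13. The lowest mean coverage in treated cells was 64.7%, at DEPP1, a target of FOXO factors, with 5349 and 5361 bp in treated, against 8276 and 7365 bp in untreated CFPAC1; WT clones had 7125 and 7416 bp there. The domain at ANKMY2 and BZW2 had 4577 and 4725 bp in treated, against 6907 bp in both untreated libraries. CYP24A1, the vitamin D hydroxylase, had 5920 and 5586 bp in treated, against 7642 bp in both untreated libraries. DHRS3, a retinal reductase, had 9422 and 7303 bp against 11549 and 10988 bp, and CASP8, a death-receptor caspase, 6715 and 5030 bp against 8201 and 7453 bp. The treated libraries lay below the untreated ones at each of these 5 domains. The largest positive difference of means was at SLC6A6, a taurine transporter, with 6757 and 6632 bp in treated, against 6845 and 6067 bp in untreated CFPAC1, ranges that overlap.

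The clone libraries did not enter the choice, so KO and WT clones were compared with a test. A rise had little room, since coverage cannot exceed the width. In WT clones 272 of the 424 domains were already covered over at least 95% on average. The counts of domains higher in KO clones therefore follow in part from the choice. Coverage per peak was fitted over all peaks in 10 libraries with limma, on a log2 scale with 500 bp added and each library centred, and p-values were adjusted over the 85618 peaks covered in at least 2 of them. In KO clones 6 domains were called lower and 0 higher. Over all peaks tested, 2.43% were called lower and 1.76% higher, so 6 of 424 (1.42%) is no more than the background. Without centring 19 domains were called lower (4.48%), where all peaks gave 2.96%, so this reading depends on the centring. At an unadjusted p under 0.05 there were 30 lower (7.08%) and 5 higher (1.18%), where all peaks gave 6.75% lower and 6.46% higher. Both KO clones lay below both WT clones in 115 of 424 domains (27.1%), where all peaks gave 15.7%, and above both in 26 (6.13%), where all peaks gave 12.7%. Peaks of 3000 to under 6000 bp gave 28.3 and 10.6%, so the larger share below was common to wide peaks. The mean over KO clones was below that over WT clones in 283 domains, above it in 136 and equal in 5, with a median difference of −1.23 percentage points. KO clone 1, whose peak list stood apart, was the lowest CFPAC1 library in coverage and in broad peaks; without it the domains were covered over 93.2% in KO clone 2, against a mean of 95% in WT clones, a difference of −1.75 points, against −3.27 with both KO clones.

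Coverage at marker genes also differed between KO and WT clones. The bp covered within 5 kb of the better covered end of each gene, summed over 9 ductal epithelial genes, were 53171 to 57630 in KO clones, against 60644 to 62313 in WT clones. KRT8 and KRT18, among these 9, lie next to each other, so bp between them could count for both genes. For 4 mesenchymal genes they were 16411 to 19019 in KO clones, against 15440 to 15486 in WT clones, for 5 fibroblast genes 6621 to 7233, against 5259 to 5356, and for 4 endothelial genes 6293 to 8414, against 4105 to 5552. The ranges of these 4 lists did not overlap, while those of 5 acinar genes (1555 to 3400, against 1466 to 2697) and 5 immune genes (2747 to 3495, against 3242 to 3524) did. Of the defining markers, VWF of endothelium, DCN of fibroblasts, PTPRC of immune cells, and PRSS1, AMY2A and PNLIP of acinar cells were at 0 bp in all 4 clones. Their part in the domain values was not tested.

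GABRP, the pi subunit of the GABA-A receptor that is found in epithelia, had the largest called change. Of its 11045 bp on chromosome 5, 1061 and 2478 bp were covered in KO clones, against 6050 and 6708 bp in WT clones; treated CFPAC1 had 10493 and 8030 bp, against 11045 and 9611 bp in untreated cells. The KO clones lay far below, and WT clones below the bulk cells too. The log2 change was −1.64 ± 0.28 (SE, n = 2 each, limma adjusted p = 0.0224). MiaPaCa2 had 0 bp there.

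An unnamed domain of chromosome 3 (chr3:102189985-102196997) had 4131 and 3218 bp in KO clones, against 5875 and 6005 bp in WT clones, a log2 change of −0.60 ± 0.10 (limma adjusted p = 0.0239). An unnamed domain of chromosome 13 (chr13:73323230-73330169) had 4194 and 4267 bp in KO clones, against 6539 and 5395 bp in WT clones, a log2 change of −0.41 ± 0.06 (limma adjusted p = 0.0128). In both the groups did not overlap, and bulk CFPAC1 had at least 6517 bp. LMO7, a LIM and PDZ domain protein of cell junctions, had 8885 and 9952 of 12631 bp in KO clones, against 11816 and 11504 bp in WT clones (log2 change −0.26, limma adjusted p = 0.0411). NR2F2, the nuclear receptor COUP-TFII, had 9467 and 9691 of 11698 bp in KO clones, against the full 11698 bp in both WT clones (−0.24, limma adjusted p = 0.0487). KRT39, a type I keratin of hair, had 6997 and 7208 of 8787 bp in KO clones, against 8787 and 8504 bp in WT clones (−0.23, limma adjusted p = 0.0148). NR2F2 has a second domain next to the first, with 8868 and 8806 bp in KO clones, against 8891 and 8686 bp in WT clones, which was not called.

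All domains called lower but NR2F2, 5 of 6, had 0 bp in MiaPaCa2. The 120 domains at 0 bp in MiaPaCa2 were covered over 84.1 and 88.5% in KO clones, against 94.7 and 92.4% in WT clones. The 147 domains at 90% or more in MiaPaCa2 were covered over 93.3 and 95% in KO clones, against 96.3 and 95.2% in WT clones. No test of the difference between these sets was made. The fit takes its spread from all 5 groups, and groups at 0 bp or at full width add almost none to it. A group whose 2 libraries differ, in MiaPaCa2 as in CFPAC1, raises it. With the CFPAC1 libraries alone, none of the 6 was called: limma adjusted p was 0.142 to 0.258, and 0.0229% of all peaks were called lower. The calls among the domains and among all peaks both moved when 1 clone was left out. Without WT clone 1 there were 11 lower and 3 higher (2.59 and 0.708%), where all peaks gave 2.96 and 5.21%. Without WT clone 2 there were 2 lower and 1 higher (0.472 and 0.236%), where all peaks gave 2.75 and 3.22%. Without KO clone 1 there were 19 lower and 2 higher (4.48 and 0.472%), where all peaks gave 6.85 and 2.75%. Without KO clone 2 there were 21 lower and 0 higher (4.95 and 0%), where all peaks gave 4.41 and 1.38%. The calls of KRT39 and of the chromosome 13 domain held in each of these 4 fits. GABRP was not called without WT clone 1 (limma adjusted p = 0.0535) or WT clone 2 (0.0985), and the chromosome 3 domain was not called without WT clone 2 (0.0985). LMO7 was called in 1 of the 4 fits, without KO clone 2, and NR2F2 in 1, without WT clone 1.

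Several domains with lower coverage in KO clones were not called. RBPMS, an RNA-binding protein gene on chromosome 8, had 7596 and 2810 of 13412 bp in KO clones, against 12259 and 10909 bp in WT clones (limma adjusted p = 0.174). KCNK5, a potassium channel, had 3994 and 5449 of 9726 bp in KO clones, against 8840 and 9042 bp in WT clones (limma adjusted p = 0.494). SLC4A4, a bicarbonate cotransporter of ducts, had 523 and 7804 of 8501 bp in KO clones, against 5520 and 6789 bp in WT clones, so only KO clone 1 was below both WT clones. In SEMA3A, which encodes a secreted axon guidance factor, all 4 domains lay lower in both KO than in both WT clones, the third with 2789 and 5023 of 6633 bp against 6312 and 6238 bp. Their limma adjusted p ran from 0.0594 to 0.914. PLAAT4, an interferon- and retinoid-responsive gene, had 5440 and 6442 of 8432 bp in KO clones, against 8432 and 7710 bp in WT clones (limma adjusted p = 0.710). MiaPaCa2, which enters the spread of this fit, had 1381 and 1049 bp there with IFN-beta and 660 and 0 bp without. With the CFPAC1 libraries alone, limma adjusted p was 0.179 at PLAAT4, again not called.

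Of the 10 largest positive differences, 5 lay on chromosome 20, and there WT clone 2 was the low library. The 18 domains of chromosome 20 were covered over 92.7 and 96.5% in KO clones, against 95.1 and 80.9% in WT clones, and all peaks of that chromosome over 75.5 and 79.6%, against 73.0 and 50.4%. The 14 domains of chromosome 8 were covered over 87.2 and 83.5% in KO clones, against 96.0 and 95.7% in WT clones, and all its peaks over 70.7 and 52.9%, against 72.6 and 72.1%. A single clone, WT clone 2 on chromosome 20 and KO clone 2 on chromosome 8, was low over the whole chromosome, and the part of this in the domain values was not tested. TGM2, PARD6B, UQCC1 and RIN2 were the named chromosome 20 domains among these, and off chromosome 20 the largest was KRCC1, with 6735 and 7596 of 7977 bp in KO clones, against 5718 and 6210 bp in WT clones (limma adjusted p = 0.259).

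**Figure D4:**
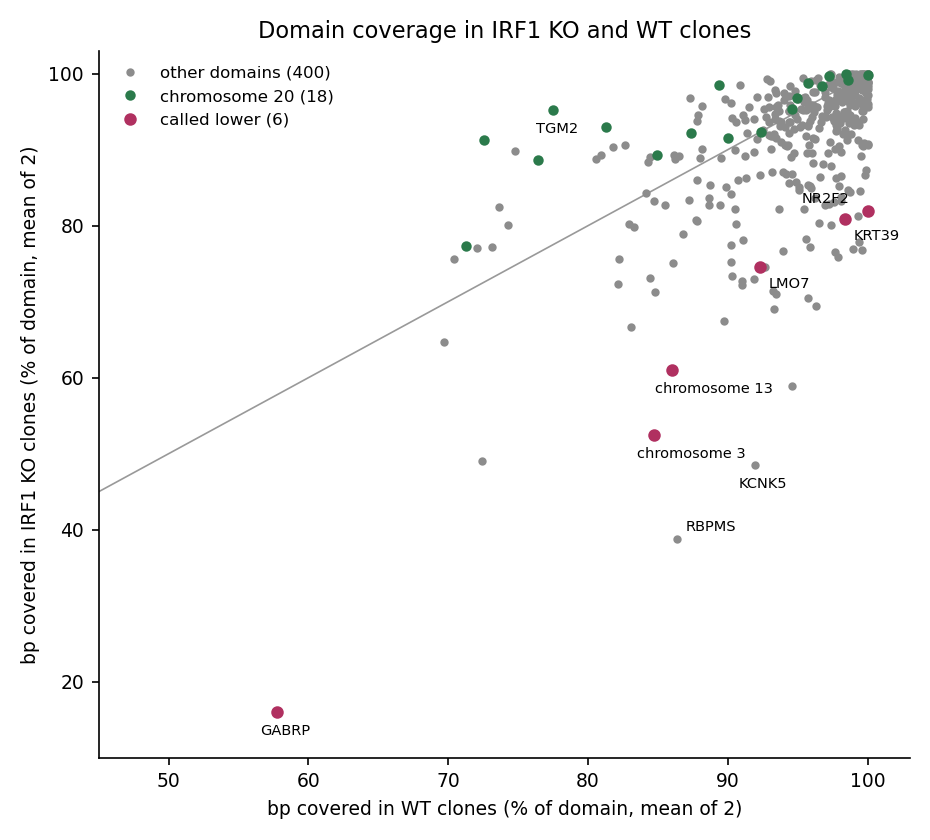
Percent of each of 424 domains under peaks in IRF1 KO clones (y axis) against WT clones (x axis), means of 2 clones, with the line of equality. Red points are the 6 domains called lower and green points the 18 on chromosome 20. GABRP lies lowest, with 1061 and 2478 bp in KO clones, against 6050 and 6708 bp in WT clones.

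In MiaPaCa2, few of these domains were called with IFN-beta, but a larger share than of all peaks. In the same fit 4 were called higher and 1 lower, or 0.943 and 0.236%, where all peaks gave 0.342% higher and 0.128% lower. At an unadjusted p under 0.05 there were 25 higher (5.9%) and 11 lower (2.59%), where all peaks gave 1.86% higher and 1.8% lower. Both treated libraries lay above both untreated ones in 57 domains (13.4%), where all peaks gave 4.26%, and below both in 37 (8.73%), where all peaks gave 5.28%. Fewer of the domains than of all peaks were at 0 bp in this line, 28.3% against 54.7%. The shares were not set against peaks of like width or coverage, and the part of either was not tested. The share of domain bp covered was 49.8 ± 2.12% in treated and 49.5 ± 0.184% in untreated MiaPaCa2 (SD, n = 2 each), a difference smaller than the spread of the treated libraries.

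HK2, hexokinase 2, which takes the first step of glycolysis, had a domain of 12341 bp in its body. In MiaPaCa2 it was covered over 6431 and 6672 bp with IFN-beta, against 3644 and 3667 bp without, a log2 change of 0.77 ± 0.04 (SE, n = 2 each, limma adjusted p = 0.00184). In CFPAC1 it was near full throughout, with 11032 and 11731 bp in KO clones, against 11507 and 11039 bp in WT clones. The SPATS2L domain of 12145 bp had 12145 and 12058 bp in treated, against 7491 and 8407 bp in untreated MiaPaCa2 (log2 change 0.59 ± 0.08, limma adjusted p = 0.0365). The other two domains of SPATS2L did not follow: the first had 1484 and 2010 bp with IFN-beta, against 1745 and 1854 bp without, and the third was full at 8031 bp in all 4.

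ACSL5 and NRIP1 had small peaks that were found with IFN-beta alone among the MiaPaCa2 libraries. ACSL5, which activates long-chain fatty acids, had 1058 and 924 of 6714 bp in treated, against 0 bp in both untreated MiaPaCa2 libraries (log2 change 1.58 ± 0.07 on the scale with 500 bp added, limma adjusted p = 6.79e-04). NRIP1, a corepressor of nuclear receptors, had 794 and 904 of 15307 bp in treated, against 0 bp in both untreated MiaPaCa2 libraries (1.44 ± 0.05, limma adjusted p = 3.43e-04). In CFPAC1 both domains were already near full, ACSL5 over 6349 to 6714 bp and NRIP1 over 14253 to 15307 bp, with or without IFN-beta. SMAD6 was the one called lower, with 0 bp in both treated, against 394 and 240 bp in untreated MiaPaCa2, of 8803 bp (−0.70 ± 0.08, limma adjusted p = 0.0247). The covered bp at these 3 domains was at most 1058 bp in MiaPaCa2, in domains of 6714 to 15307 bp. SLC2A1 had 2834 and 5991 of 19408 bp in treated, against 2056 and 883 bp in untreated MiaPaCa2; the groups did not overlap and the change was not called (log2 change 1.31, limma adjusted p = 0.447).

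With the MiaPaCa2 libraries alone in the fit, NRIP1 was called (limma adjusted p = 0.0362) and the others were not: HK2 had 0.0543, ACSL5 0.0584, SPATS2L 0.210 and SMAD6 0.373, where 0.123% of all peaks were called higher. Without treated library 1 there were 5 higher and 0 lower (1.18 and 0%), where all peaks gave 0.182 and 0.0281%. Without treated library 2 there were 6 higher and 3 lower (1.42 and 0.708%), where all peaks gave 0.344 and 0.287%. Without untreated library 1 there were 6 higher and 2 lower (1.42 and 0.472%), where all peaks gave 0.283 and 0.102%. Without untreated library 2 there were 13 higher and 5 lower (3.07 and 1.18%), where all peaks gave 0.499 and 0.329%. NRIP1, ACSL5 and HK2 were called in each of these fits. SPATS2L was called only without untreated library 2, and SMAD6 was called without either untreated library but not without treated library 1 or treated library 2. With 2 libraries a group, an exact permutation test of a single domain cannot go below p = 0.333. None of the 5 genes was called in KO against WT clones, where their adjusted p in limma ran from 0.754 to 0.977. The difference between the lines in the response to IFN-beta was not tested.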

How the data were processed

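H3K27ac ChIP-seq peak lists were used, 1 per library (12 libraries, 6 groups of 2, grouped by the sample titles). Per the submitters' processing notes, Trimmomatic 0.38, Bowtie2 2.2.6, SAMtools and MACS2 2.1.0.20150731 were used with the GRCh38 (hg38) build. The control library and the filters are not given in the sources used here, and read depth is unknown. The deposited files give each peak a fold enrichment ratio at the summit and a −log10 q value, made by the authors per library; they served to describe peaks and to filter or rank them within 1 list. The deposited score and −log10 p columns were not used. Replicates were not pooled by the authors, since each deposited list belongs to 1 library.

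Peaks on chromosomes 1 to 22 and X were kept. The 424 domains and the gene lists were chosen with earlier results of these data known. For every peak of the first untreated CFPAC1 library, the bp covered by peaks of each library were counted with Python 3.11.15, numpy 2.4.6 and pandas 2.3.3. The log2 of these lengths, with 500 bp added, was centred to a library mean of 0 and fitted with limma 3.58.1 (R 4.3.3, trended prior) over 10 libraries in 5 groups, with 5 residual degrees of freedom. The untreated CFPAC1 libraries were left out of the fit because they chose the domains. Peaks covered in at least 2 of the 10 libraries were tested (85618), and a peak was called at a Benjamini-Hochberg adjusted p under 0.05 over all of them. The procedure was tested on simulated data, with all 10 libraries drawn around the WT clone means and 1 spread per peak. A peak at 0 bp or at full width in some groups only was not simulated. The simulation therefore cannot judge calls at such peaks. Genes were assigned from RefSeq (GRCh38.p14) by a gene end inside the domain, then a gene body, then the nearest end within 50 kb; the promoter table held no entry for chromosome 8. Named domains are the 10 widest; called domains; list genes with an end or body in a domain; the extremes of MiaPaCa2 coverage, of treated minus untreated and of KO minus WT coverage; and those beside the width threshold. The KCNK5, SLC4A4, SEMA3A and PLAAT4 domains come from the KO minus WT extremes; SOX2, ISL1, SLC2A1 in MiaPaCa2, the microRNA domains and the chromosome groups were singled out after their values were seen. Same-numbered replicates of the compared groups did not deviate together (correlation −0.0824 for the clones and 0.0912 for MiaPaCa2), so replicate numbers were not taken as pairs.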

Additional observations from a re-analysis of the deposited data

How the results depend on the processing

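In the comparison of KO with WT clones, 6 domains (1.42%) and 4.19% of all peaks were called in either direction. The domains called were 2 with a pseudocount of 100 bp (3.88% of all peaks), 13 with 1000 bp (4.27%), 19 without centring (4.77%), 12 when centred on peaks covered in all 10 libraries (4.29%), 0 with CFPAC1 libraries alone (0.0229%), 2 with peaks of −log10 q of at least 5 (4.17%), and 2 with all lists trimmed to equal numbers of peaks (4.05%). They were 19 of 729 domains (2.61%) at a width of at least 5000 bp and 3 of 154 (1.95%) at 8000 bp. Leaving out 1 clone gave 3 to 21 calls: 14 without WT clone 1 (3.3%, and 8.17% of all peaks), 3 without WT clone 2 (0.708 and 5.97%), 21 without KO clone 1 (4.95 and 9.6%) and 21 without KO clone 2 (4.95 and 5.79%). With a replicate block the count was 4 (0.943 and 3.07%). The share of the domains called in either direction was above that of all peaks in none of these settings; counting lower calls alone, it was above with 1000 bp (3.07 against 2.47%), without centring (4.48 against 2.96%), centred on peaks covered in all 10 libraries (2.83 against 2.72%), at 5000 bp (2.47 against 2.43%) and without KO clone 2 (4.95 against 4.41%). In MiaPaCa2, 5 domains (1.18%) and 0.471% of all peaks were called. There was 1 with MiaPaCa2 libraries alone (0.236 and 0.123%), 3 with a replicate block (0.708 and 0.216%) and 15 at a width of at least 5000 bp (2.06 and 0.471%). With MiaPaCa2 libraries alone, 296 of the 424 domains were tested. The 0.236% is of all 424, while the 0.123% is of the tested peaks. Leaving out 1 MiaPaCa2 library gave 5 to 18 calls, 9 without treated library 2 (2.12 and 0.631%), 8 without untreated library 1 (1.89 and 0.385%) and 18 without untreated library 2 (4.25 and 0.828%). When an arm was left with 1 library, it was assumed to vary like the other groups. The causes were not tested. The numbers do not pair the samples, so a call lost under the block is not a weaker effect.

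The 11 domains called kept their sign in every alternative run for them. The alternatives reuse the same libraries, so a kept sign is little support. Those at another width use the main fit and repeat its values, and they are among the counts given next. GABRP was called in 11 of 14 and ran from −2.10 to −1.18 on the log2 scale, but not without WT clone 1 (limma adjusted p = 0.0535) or WT clone 2 (0.0985). NRIP1 was called in 15 of 15, HK2 in 14 of 15 and ACSL5 in 13 of 14. NR2F2 was called in 7 of 15, LMO7 and SPATS2L in 8 of 15. KO minus WT coverage was −3.27 percentage points, −4.79 to −1.75 leaving out 1 clone, and −3.76 off chromosome 20, an alternative chosen after seeing the data. Treated minus untreated coverage in MiaPaCa2 was 0.314 points, −1.19 to 1.82 leaving out 1 library. Depth is unknown, so a domain at 0 bp held no called peak at the depth of that library, which does not show absence of the mark.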
